A study of Mus musculus with 4 samples.

Results

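Liver-type plasma protein transcripts in the kidney were followed across experimental membranous nephropathy (MN) and control mice. The set comprised 10 genes chosen by name: the fibrinogen chains Fga, Fgb and Fgg, the carrier proteins Alb, Ttr and Rbp4, the fetuin Ahsg, the apolipoproteins Apoa1 and Apoa2, and the urea cycle enzyme Cps1. All non-control spots bearing these names were used, 12 probes on 21 spots of each array, out of 34607 genes with a non-control probe. The genes were picked with their MN against control differences already known, so those differences are given below as a description, and nothing is read from whether the fit over all genes called them.

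Whole-kidney RNA from 2 MN and 2 control samples was hybridized to 1-colour Agilent mouse arrays, 1 sample per array. MN is a disease in which antibody and antigen collect on the outer side of the glomerular filter. All mice were female BALB/C, 6 weeks old at the start, and all had been immunized with 0.2 mg of cationic bovine serum albumin (cBSA) in complete Freund's adjuvant. From 2 weeks later MN mice received cBSA intravenously at 13 mg/kg, 3 times a week for 6 weeks. Control mice received vehicle on that schedule, named saline in the treatment protocol and PBS in the sample characteristics. Controls therefore also carried the antigen and adjuvant immunization, and the injected antigen is bovine albumin protein, whereas the arrays measured mouse RNA. The labels do not say whether each array came from a separate animal or from a pool.

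Hepatocytes make most of the circulating plasma proteins and secrete them into blood. Fibrinogen is built from alpha, beta and gamma chains that are translated from separate, neighbouring genes, and its synthesis in liver increases with interleukin 6 in the acute phase response. Albumin, transthyretin and retinol-binding protein 4 are carriers of which some passes the glomerular filter, and proximal tubule cells take the filtered proteins up through megalin and cubilin. A protein that is taken up leaves no transcript of its own, so the arrays read RNA made in, or brought along with, the kidney tissue. In whole tissue, more cells of a type and more RNA per cell cannot be told apart.

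The scanner software placed 64% and 63.1% of non-control spots well above background on the MN arrays, and 65.9% and 79.5% on the control arrays. Replicate 1 of both groups lay on slide 1 and replicate 2 on slide 2. The slope of the spiked-in control RNAs was 0.895 on both slide 1 arrays, which the software marked as out of range. On slide 2 it was in range, at 0.968 for MN and 0.949 for control. Levels are log2 of the processed signal relative to the 75th percentile of the same array, so that 0 marks that percentile and a difference of 1 is a doubling. A probe was called well above background by the scanner software's own flag, and a gene entered the fit when a probe had that flag on both arrays of at least 1 group. The tissue label was set beside kidney genes: 12 of 12 proximal tubule markers and 7 of 7 podocyte markers passed that flag on each of the 4 arrays. The flag is a weak check of tissue, since 15 of 26 listed hepatocyte enzymes and transporters also passed it on all 4. Only 2 arrays stood behind each group, and their number sets the precision.

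The probes that carried the fibrinogen, albumin and Apoa1 results are given here so that each signal can be traced to the stretch of transcript it reads. They are 60 bases long, and positions are on mouse build mm9, as in the scanner files. The first Fga probe lies at chr3:82835678-82835737 on the plus strand, the second at chr3:82837260-82837319 on the plus strand, and the Fgb probe at chr3:82846334-82846393 on the minus strand. The Alb probe lies at chr5:90901598-90901657 and the Apoa1 probe at chr9:46037921-46037980, both on the plus strand. Probes without a printed sequence lie at chr3:82818825-82818884 (Fgg), chr16:22899415-22899474 (Ahsg), chr1:173156320-173156379 and chr1:173156445-173156504 (Apoa2) and chr1:67276029-67276088 (Cps1), all on the plus strand, and at chr19:38191120-38191179 on the minus strand (Rbp4). Capitals in the second Fga probe and in the Fgb probe mark the bases that are identical in their best ungapped alignment, 28 of 53 aligned bases (52.8%). Each of the 5 has a reading frame with 0 stop codons.
Fga probe 1: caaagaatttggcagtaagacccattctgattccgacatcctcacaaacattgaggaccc
Fga probe 2: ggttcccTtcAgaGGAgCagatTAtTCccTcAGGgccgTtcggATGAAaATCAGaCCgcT
Fgb probe: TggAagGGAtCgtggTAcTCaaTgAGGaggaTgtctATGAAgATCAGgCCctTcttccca
Alb probe: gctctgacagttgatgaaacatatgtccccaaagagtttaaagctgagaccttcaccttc
Apoa1 probe: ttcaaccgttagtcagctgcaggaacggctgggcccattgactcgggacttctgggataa

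In processed signal the fibrinogen chains did not share a single size of difference. Fgb, the beta chain, was 2.72-fold higher in MN kidneys, whereas Fga and Fgg, the alpha and gamma chains, were each 1.23-fold higher. The Fgb level was -3.64 and -3.36 on the MN arrays and -4.90 and -4.99 on the control arrays. Both MN arrays lay above both control arrays, and the difference was 1.44 ± 0.17 (log2, SE from the fit over all genes), with 1.26 on slide 1 and 1.63 on slide 2. Fgb was dim: the lowest signals flagged well above background were at -5.11 on the first control array, close to Fgb there, and at -6.04 on the second. With normexp background correction at an offset of 50, which draws dim probes towards each other, its difference was 0.57. The same correction gave 0.30 for Fga and 0.25 for Fgg, so the chains then lay closer together.

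The first Fga probe had levels of -0.48 and -0.65 in MN and -0.67 and -1.05 in control. The groups did not overlap, but the lower MN array exceeded the higher control array by only 0.02, and the difference was 0.29 ± 0.20. The second Fga probe, whose sequence shares bases with the Fgb probe, read -2.83 and -2.77 in MN and -2.86 and -2.46 in control. There the groups overlapped and the difference was -0.14. Whether the second Fga probe and the Fgb probe share signal was not tested. The mean of both Fga probes differed by 0.08. Fgg had levels of -0.40 and -0.64 in MN and -0.73 and -0.90 in control, a difference of 0.30 ± 0.17 with no overlap. The first Fga probe was higher in MN by 0.18 and 0.40 on slides 1 and 2, and Fgg by 0.34 and 0.26. The second Fga probe differed by 0.04 on slide 1 and -0.31 on slide 2.

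All 3 carrier proteins were 2-fold or more higher in MN, and none had overlapping groups. Ttr encodes transthyretin, which carries thyroid hormone and the retinol-binding protein complex. Its level was 3.63 and 4.05 in MN and 2.28 and 2.61 in control, a difference of 1.40 ± 0.23 (2.64-fold). Both MN arrays were the higher ones, and the difference was 1.40 with normexp as well. Rbp4 encodes the plasma carrier of retinol. Its level was -1.03 and -1.04 in MN and -3.24 and -2.89 in control. The MN arrays were almost equal, the control arrays lay at least 1.85 lower, and the difference was 2.03 ± 0.18 (4.09-fold; 1.50 with normexp).

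Alb, which encodes albumin, the most abundant plasma protein, had a level of 0.01 and -0.19 in MN and -0.92 and -1.29 in control. Its MN arrays were both higher than its control arrays, with a smallest gap of 0.74. The difference was 1.02 ± 0.20 (2.03-fold), with 0.93 on slide 1 and 1.11 on slide 2. Normexp gave 0.84.

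Ahsg, which encodes fetuin A, a plasma glycoprotein that binds calcium phosphate, had the largest difference among the 9 genes in the fit. Its level was -1.76 and -1.73 in MN and -5.16 and -4.56 in control. It averaged -1.75 ± 0.02 in MN and -4.86 ± 0.43 in control (SD, n = 2 each), a difference of 3.11 ± 0.25 (8.64-fold), with 3.40 on slide 1 and 2.82 on slide 2. Ahsg was well above background on both MN arrays and on 1 of 2 control arrays, so it entered the fit through the MN arrays and its size depends on a control signal near background. Normexp gave 1.56, and over the alternatives tried the difference ran from 1.56 to 3.41.

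**Figure D1:**
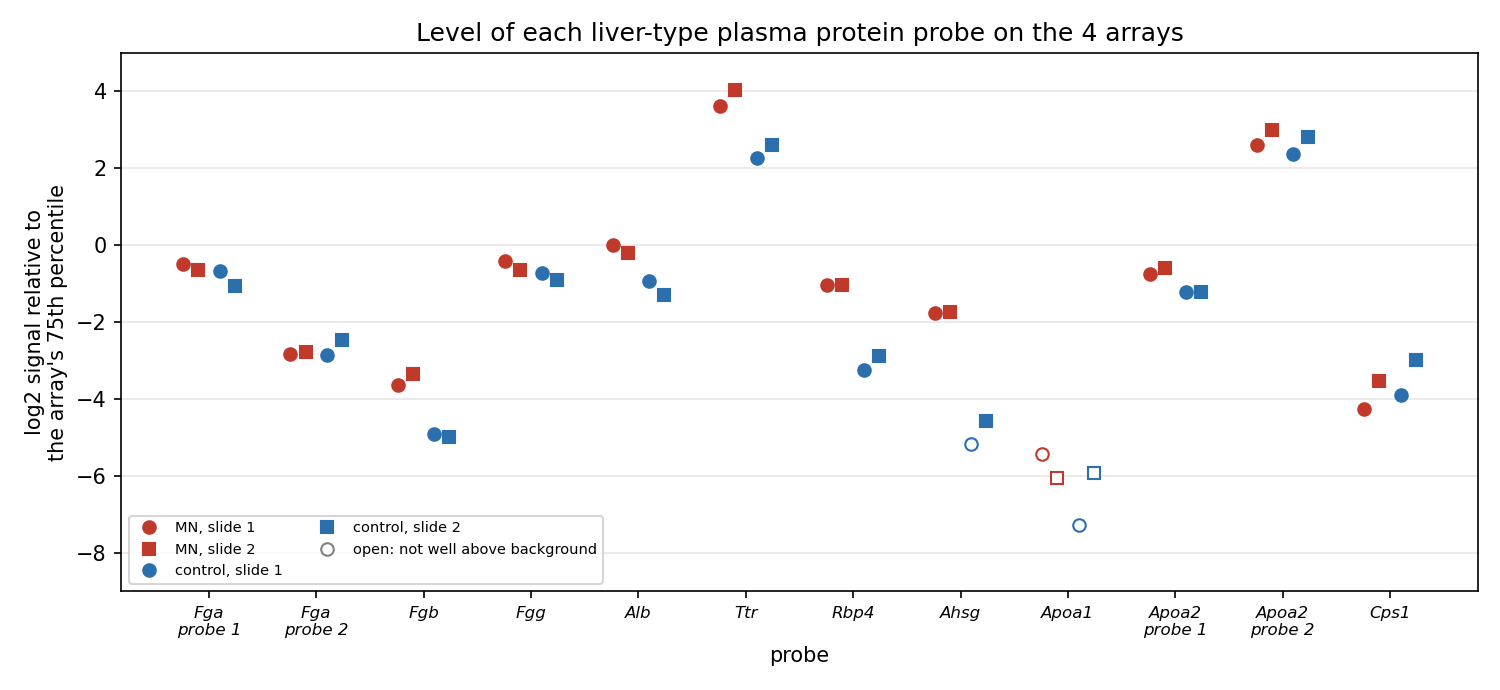
Level of each of the 12 probes on each array (log2 signal relative to the array's 75th percentile), with MN arrays in red left of control arrays in blue, circles for slide 1, squares for slide 2, and open symbols where the probe was not well above background. For Ttr, Alb, Rbp4, Fgb and Ahsg both MN points lie at least 0.74 above both control points, while those of Apoa2 probe 2, Fga probe 2 and Cps1 are interleaved.

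The apolipoproteins of high-density lipoprotein (HDL) gave no uniform reading: Apoa1 stayed near background and the Apoa2 probes differed from each other. Apoa1, the main protein of HDL, was read by 10 spots per array. None of them was well above background on the MN arrays, against 0 and 4 on the control arrays. The mean processed signal was 19.1 and 19.7 scanner units in MN and 4.78 and 13.7 in control, and the software had put substitute values in 0 and 2 MN spots and in 9 and 0 control spots. Spots ran from 9.71 to 27.7 and from 9.27 to 35.2 on the MN arrays. On the control arrays they ran from 4.45 to 8.42 and from 9.48 to 18.4. The spots flagged on the second control array were thus no brighter than many unflagged MN spots. Apoa1 did not enter the fit and no fold is given.

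**Figure D2:**
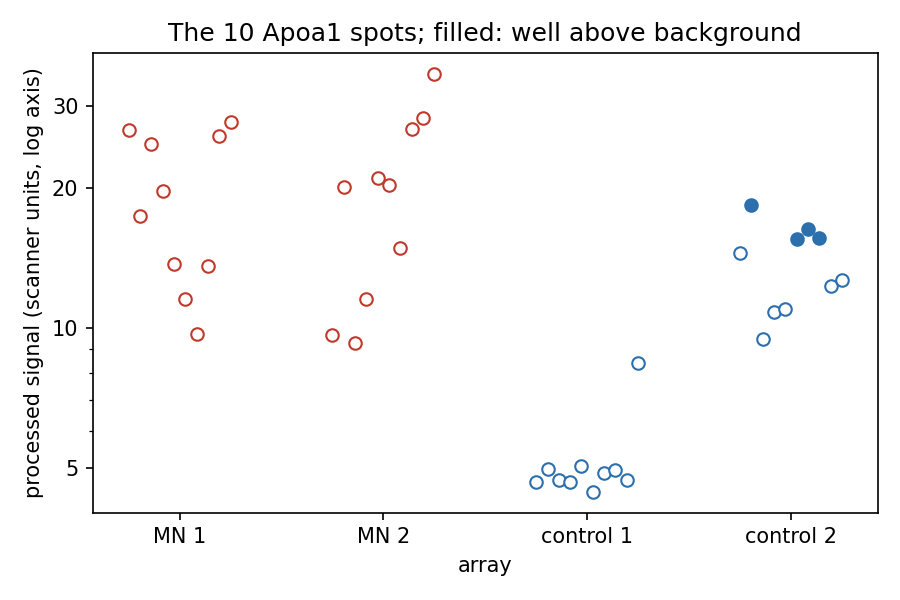
Processed signal of the 10 Apoa1 spots on each array (scanner units, log axis), MN left of control, 1 circle per spot, filled where the software flagged it well above background. The only filled circles are 4 on the second control array, and spots of both MN arrays reach higher, up to 27.7 and 35.2.

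Apoa2, the second HDL apolipoprotein, was read by 2 probes. The brighter probe, which stood for the gene, had levels of 2.61 and 2.99 in MN and 2.36 and 2.81 in control. Its groups overlapped and the difference was 0.22 ± 0.24, with 0.26 on slide 1 and 0.18 on slide 2. The order followed the slide, since both slide 2 arrays were higher than both slide 1 arrays in this probe. The dimmer probe read -0.76 and -0.59 in MN and -1.21 and -1.21 in control, without overlap, a difference of 0.53. Without control replicate 1 the brighter probe's difference was -0.01.

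Cps1 encodes the mitochondrial enzyme that feeds ammonia into the urea cycle in hepatocytes. It was the only gene in the fit that was lower in MN by its mean, with levels of -4.26 and -3.54 in MN and -3.90 and -2.99 in control. The groups overlapped, the slide 2 arrays were the higher in each group, and the difference was -0.46 ± 0.43, with -0.36 on slide 1 and -0.56 on slide 2.

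Set side by side, 7 of the 9 genes in the fit had both MN arrays above both control arrays, 0 had both below and 2 overlapped. Over all 25293 genes tested, 13.2% had both MN arrays above both control arrays and 19.8% had both below. A 2-fold or greater excess in MN was found in 5 of the 9, against 1.07% of all genes, and a 2-fold or greater deficit in 0 of the 9, against 1.54%. The median difference of the 9 was 1.02 (0.93 on slide 1 and 1.11 on slide 2), and that of all genes tested was -0.05. With normexp the median of the 9 was 0.57, and over the 8 genes well above background on all 4 arrays, without Ahsg, it was 0.66. Because the genes were picked for this contrast, nothing is read from these shares. In the limma fit over all genes, 5 genes (0.0198%) passed an adjusted p under 0.05 higher in MN and 0 (0%) lower, and none of the 9 was among them. An unadjusted p under 0.05 was reached by 896 genes higher in MN (3.54%) and 885 lower (3.5%). In the order of rises over the 25293 genes Ahsg stood at place 27, Rbp4 at 68, Fgb at 122, Ttr at 129 and Alb at 263. Fgg stood at 2287, Fga at 2361, Apoa2 at 3214 and Cps1 at 23188. These places are a description too, since the genes were picked for this contrast.

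**Figure D3:**
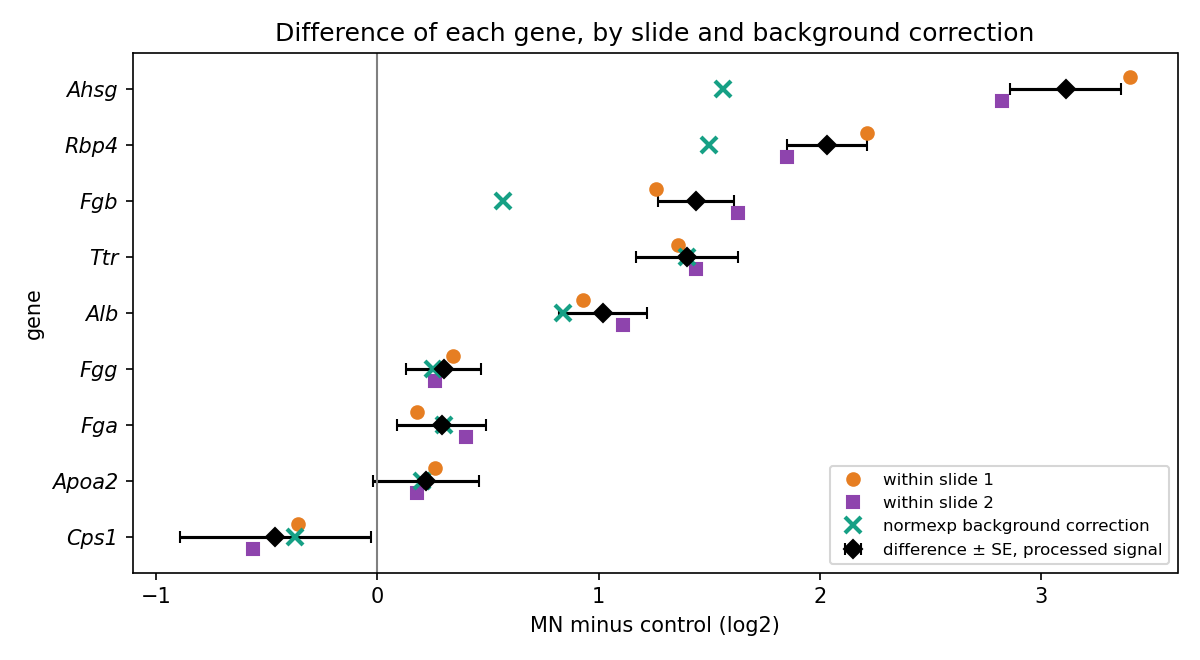
MN minus control difference (log2) of the 9 genes in the fit: black diamonds with bars for the SE, orange circles and purple squares for the difference within slide 1 and slide 2, and green crosses for normexp background correction. On both slides 8 of the 9 lie above 0, and normexp moves Ahsg to 1.56, Rbp4 to 1.50 and Fgb to 0.57 while Ttr stays at 1.40.

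For 4 of the genes the other transcripts with the most similar profile were listed, by the root mean square distance between log2 levels over the 4 arrays after centring each gene, among 14981 named genes well above background on all arrays. Nearest to Ahsg were R3hdml (0.041), Jchain, the antibody joining chain (0.216), and Car3, a carbonic anhydrase of fat and muscle (0.299). Nearest to Fgb were the intermediate filament gene Vim (0.116), the chemokine gene Ccl28 (0.116) and the stress gene Nupr1 (0.117). Ttr was closest to Mup-ps12, a major urinary protein pseudogene (0.035), and then to Fkbp5 (0.101) and Tmem54 (0.111). Alb was closest to the lipid exporter gene Abca1 (0.046), Slc16a14 (0.047) and Clca3a1 (0.059). With 4 arrays in 2 groups, a small distance mostly says that a gene had a similar difference between the groups.

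The promoters of the fibrinogen chains and of albumin are shown because the 3 chains are known to be transcribed together in liver. Here Fgb, read by a dim probe, differed by 1.44 and Fga and Fgg by 0.29 and 0.30. With normexp the differences of Fgb, Fga and Fgg were 0.57, 0.30 and 0.25, and the gap between chains was not tested. The promoters shown are the 250 bases before the transcription start, from RefSeq on build GRCm38.p6. Fgg lies at chr3:83007474-83007723 and Fga at chr3:83025903-83026152, both on the plus strand. Fgb lies at chr3:83049864-83050113 on the minus strand, and Alb at chr5:90460620-90460869 on the plus strand. Capitals mark matches, on either strand and with 0 overlaps, to 2 motifs: TTGCNNAA, bound by C/EBP factors, and CTGGGAA, the interleukin 6 response element.
Fgg promoter: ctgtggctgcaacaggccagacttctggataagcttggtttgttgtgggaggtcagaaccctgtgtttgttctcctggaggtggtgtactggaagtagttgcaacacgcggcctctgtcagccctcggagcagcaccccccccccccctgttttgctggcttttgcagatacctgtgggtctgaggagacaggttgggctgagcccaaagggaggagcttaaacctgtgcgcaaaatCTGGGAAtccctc
Fga promoter: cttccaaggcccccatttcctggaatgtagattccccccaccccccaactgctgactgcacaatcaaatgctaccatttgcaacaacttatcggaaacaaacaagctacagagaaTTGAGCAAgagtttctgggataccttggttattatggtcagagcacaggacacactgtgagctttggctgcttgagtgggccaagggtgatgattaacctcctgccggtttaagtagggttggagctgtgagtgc
Fgb promoter: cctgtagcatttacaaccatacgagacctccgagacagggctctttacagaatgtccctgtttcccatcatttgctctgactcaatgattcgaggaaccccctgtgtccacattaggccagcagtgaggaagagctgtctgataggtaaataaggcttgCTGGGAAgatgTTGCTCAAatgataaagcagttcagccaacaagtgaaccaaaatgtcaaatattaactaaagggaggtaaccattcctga
Alb promoter: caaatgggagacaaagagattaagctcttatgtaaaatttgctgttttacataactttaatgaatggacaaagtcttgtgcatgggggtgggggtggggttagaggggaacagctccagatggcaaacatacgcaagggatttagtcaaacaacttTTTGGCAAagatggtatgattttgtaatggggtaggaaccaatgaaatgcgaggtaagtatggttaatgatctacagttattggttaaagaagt

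The Fgb promoter held both motifs, with the interleukin 6 response element at 91 to 85 bases and the C/EBP match at 80 to 73 bases before the start. The Fga promoter held a C/EBP match at 135 to 128 bases and Alb at 94 to 87 bases, and Fgg held the interleukin 6 response element at 13 to 7 bases. For 8 of the 10 genes promoters were searched, 10 promoters in all, and a gene counted when any of its promoters matched. The shares over all promoters count promoters instead of genes, so the 2 are not in the same unit. The interleukin 6 response element was in Fgb and Fgg and in 9.1% of all 32851 promoters of this length. The C/EBP motif was in 6 of the 8, Ahsg, Alb, Apoa2, Fga, Fgb and Rbp4, and in 9.56% of all promoters. A match describes these letters only.

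Other plasma proteins made by the liver had differences on both sides of 0. Of 52 listed genes 44 were in the fit, 29 with a positive and 15 with a negative difference, and 0 passed (smallest adjusted p from limma 0.347; an unadjusted p under 0.05 was reached by 4 higher and 1 lower). Their median stood at 0.10 (slide 1 0.13, slide 2 0.09), against -0.05 for all genes. Apoh, which encodes beta-2-glycoprotein I, had levels of -3.39 and -3.60 in MN and -4.99 and -4.19 in control, a difference of 1.09 ± 0.32 (0.33 with normexp). Apob, the structural protein of low-density lipoprotein, differed by 0.95 ± 0.14 (0.46 with normexp) and by 1.82 in a second probe. Hp, the haemoglobin scavenger haptoglobin, differed by 0.82 ± 0.17, and Serpina1a, an alpha-1 antitrypsin gene whose near-identical relatives can share its signal, by 0.42 ± 0.15. Serpina6, which encodes the plasma carrier of glucocorticoids, lay as far in the other direction, at 0.37 and 0.38 in MN and 1.21 and 1.15 in control, a difference of -0.81 ± 0.13 without overlap. Trf, the iron carrier transferrin, differed by 0.01 ± 0.19. Serpina6 and Trf were named after their values were seen.

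Hepatocyte genes other than plasma proteins were counted as a list of enzymes and transporters, with no test of the list as a whole. Of 26 enzymes and transporters 16 were in the fit, 6 with positive and 10 with negative differences, with a median of -0.07 (0.04 with quantile scaling). The fit called 0 of them (smallest adjusted p 0.459; 2 higher at an unadjusted p under 0.05). Cyp1a2, Cyp8b1, Tdo2, Abcb11, Hamp and Hao1, 6 of the 26, were not well above background on any array. The widest differences were those of Sds, Hal and Tfr2. Sds, a serine-degrading enzyme, was at -4.08 and -6.79 in MN and -4.17 and -3.90 in control, a difference of -1.40 ± 0.97 that came from the second MN array, where it was not well above background. Hal, which degrades histidine, differed by 0.68 ± 0.24 (0.15 with normexp) in its brighter probe and by -0.42 in another. Tfr2, an iron-sensing receptor, differed by 0.65 ± 0.14 (0.45 with normexp). The groups did not overlap for Tfr2 or for the brighter Hal probe. Cyp2e1, an ethanol-metabolizing enzyme that kidney also expresses, differed by 0.19 ± 0.16, and Tat, which degrades tyrosine, by -0.20 ± 0.30. The drug-metabolizing Cyp3a11 was well above background on the second MN array and the second control array. The summed level of the 26 genes was 258 and 391 times the arrays' 75th percentile in MN and 240 and 449 times in control, most of it from the probe of Slc10a1, a bile acid transporter. How far stray hepatocytes or their RNA play a part in the values of Ahsg, Rbp4 or Alb was not tested.

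Around Cps1, 6 of 9 other urea cycle genes were in the fit and 0 passed (1 lower at an unadjusted p under 0.05; smallest adjusted p 0.613). Otc, the next enzyme of the hepatic cycle, was not well above background on any array, and Arg1, the liver arginase, only on the second control array. Ass1 and Asl, which make arginine in proximal tubule, differed by 0.01 ± 0.14 and 0.10 ± 0.15. Arg2, the mitochondrial arginase of kidney, was at 0.58 and 0.91 in MN and 1.28 and 1.38 in control, a difference of -0.59 ± 0.18 without overlap.

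Acute phase proteins, with which hepatic fibrinogen is induced, had a median difference of 0.06 (0.15 on slide 1 and -0.07 on slide 2). Of 23 listed genes 14 were in the fit, 9 positive and 5 negative, and 0 passed (1 in each direction at an unadjusted p under 0.05; smallest adjusted p 0.433). Itih4 and Hp, also on the list of other liver-made plasma proteins, had the largest differences. Itih4 differed by 0.83 ± 0.52 (0.16 with normexp) and was not well above background on the first control array. Hp differed by 0.82 ± 0.17 (0.54 with normexp). Saa1 and Saa3, serum amyloid A genes, differed by 0.09 ± 0.24 and -0.49 ± 0.13. Apcs, serum amyloid P, differed by -0.33 ± 0.16, and Lcn2, an iron-siderophore binder made by injured tubules, by 0.40 ± 0.17. Crp was well above background on the second control array alone.

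Interleukin 6 family signalling genes had a median of -0.02 (0.01 with quantile scaling), with 8 positive and 9 negative among 17 in the fit, and 0 passed (1 higher at an unadjusted p under 0.05; smallest adjusted p 0.672). The receptor gene Il6ra was at 1.06 and 1.22 in MN and 0.43 and 0.76 in control, a difference of 0.55 ± 0.18. Its shared partner Il6st differed by 0.35 ± 0.18. The feedback inhibitor Socs3 and the transcription factor Stat3 each differed by -0.12. Il6 itself, named after its values were seen, was not well above background on any array.

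Transcription factors that drive liver genes had a median of -0.17, with 4 positive and 10 negative among 14 in the fit, and 0 passed (2 lower at an unadjusted p under 0.05; smallest adjusted p 0.599). The pioneer factor Foxa1 differed by -0.75 ± 0.22, its relative Foxa3 by -0.47 ± 0.16, and Hnf4a by -0.04 ± 0.18.

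Genes for the uptake of filtered carriers include the tubular receptors. Of 14 genes 13 were in the fit with a median of 0.05, and 0 passed (1 higher at an unadjusted p under 0.05). Lrp2, which encodes megalin, was at 7.18 and 7.29 in MN and 6.88 and 7.45 in control, so its groups overlapped. Cubn, cubilin, differed by 0.02 ± 0.20, Fcgrt, the receptor that recycles albumin and IgG, by 0.00 ± 0.16, and Stra6, a receptor for RBP4 known from other tissues, by -0.14 ± 0.21.

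HDL handling genes had a median of 0.08 over 10 in the fit, and 0 passed (2 higher at an unadjusted p under 0.05; smallest adjusted p 0.345). Abcg1, a cholesterol exporter, was at 0.97 and 0.65 in MN and -0.32 and -0.45 in control, a difference of 1.19 ± 0.18. Abca1, which loads lipid onto apolipoprotein A1, was at 1.89 and 1.80 in MN and 0.99 and 0.70 in control, an excess of 2-fold with an SE of 0.17 on the log2 scale. Neither overlapped between the groups. Scarb1, the HDL receptor, differed by -0.16 ± 0.20.

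Genes that act on fibrinogen or fibrin in tissue had a median of 0.26 (0.27 on slide 1 and 0.21 on slide 2, and 0.15 with normexp). All 20 were in the fit, 14 positive and 6 negative, 4 of them higher at an unadjusted p under 0.05, and 0 passed (smallest adjusted p 0.346). F13a1, the subunit of factor XIII that crosslinks fibrin, was at -3.94 and -3.93 in MN and -4.80 and -4.97 in control, a difference of 0.95 ± 0.14 (0.28 with normexp). Plat, tissue plasminogen activator, differed by 0.58 ± 0.16 and Thbd, thrombomodulin, by 0.80 ± 0.36. Itgam, a leukocyte integrin chain that binds fibrinogen, differed by 1.13 ± 0.46, with -0.21 from another probe.

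Lists of other tissues that a kidney sample could carry were measured beside the plasma proteins. Adipocyte markers and major urinary proteins were the lists with members past the threshold. Of 11 adipocyte markers 10 were in the fit, 7 with higher and 3 with lower means, and 2 passed: Cfd, the protease adipsin (6.93 ± 0.22), and Adipoq, adiponectin, each with an adjusted p of 0.046. Adipoq stayed below that flag on both control arrays, and MN exceeded the lowest flagged control signals by 20.6-fold. This bound is approximate, since some unflagged probes lay above the lowest flagged signal of their array. Cfd was at 1.59 and 1.99 in MN and -5.29 and -4.98 in control, where 1 of 2 arrays had it well above background, so the size of its difference depends on signals near background (5.08 with normexp). Retn, resistin, was about 23.2-fold higher by the same kind of bound and did not pass (limma adjusted p 0.293). The list's median was 1.68 (1.24 with normexp), or 1.69 with the 2 genes known only by a bound set to it. It was lower with the mean over a gene's probes, 0.78 with no filter on dim probes and 0.59 over the markers well above background on all 4 arrays. Fabp4, an abundant fat cell and endothelial gene named after its values were seen, differed by -0.10 ± 0.15. The summed level of the adipocyte markers was 24.7 and 24.4 in MN and 21 and 18.7 in control. Most of each sum came from Fabp4, at log2 levels of 4.17 and 4.08 in MN and 4.31 and 4.13 in control. The sums therefore say little about the other markers.

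Major urinary proteins are lipocalins made mainly by liver and secreted to urine, and their genes are near-identical, so which of them gave a probe's signal is uncertain. Of 11 measured 8 were in the fit, 6 positive and 2 negative, with a median of 2.39 (1.62 with normexp, and 1.20 over those well above background on all 4 arrays). Mup18 passed (limma adjusted p 0.046) and exceeded control by about 25-fold, an approximate bound again, since neither control array flagged it. Mup1 and Mup17 were about 14.7-fold and 13.6-fold higher by the same bound (limma adjusted p 0.0967 and 0.0665). Mup19, well above background on all 4 arrays, was at -0.13 and -0.16 in MN and -2.99 and -3.21 in control (adjusted p 0.0665). The summed level of the 11 genes was 2.90 and 2.84 in MN and 0.514 and 0.662 in control, so MN arrays were higher without overlap, as for Ahsg, Rbp4 and Ttr. When any single array was left out, limma called 0 genes, so Cfd, Adipoq and Mup18 were then not called. The part of either list in the values of the plasma protein genes was not tested.

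The remaining lists had 0 members past the threshold. Erythroid markers had a median of 0.39 (8 in the fit, smallest adjusted p 0.293) and summed to 319 and 351 in MN and 301 and 341 in control. Pancreas markers had a median of -0.11 (7 in the fit, 0.76), skeletal muscle markers -0.12 (6, 0.982; median 0.03 with quantile scaling), intestinal markers -0.05 (7, 0.821; 0.03) and adrenal cortex markers -0.37 (6, 0.318). At an unadjusted p under 0.05 limma had 2 erythroid markers higher and 1 lower, 2 adrenal markers lower, and 0 of the pancreas, muscle and intestinal markers. Within the kidney, proximal tubule markers had a median of -0.02 (0.09 with quantile scaling) and proximal injury genes 0.20 (12 each, 10 of the injury genes positive). Podocyte markers had a median of 0.60 (7) and markers of the loop, distal tubule and collecting duct -0.01 (9; 0.00 with median scaling). An unadjusted p under 0.05 was reached by 0, 1, 4 and 0 genes of these 4 lists, each of them higher in MN.

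**Figure D4:**
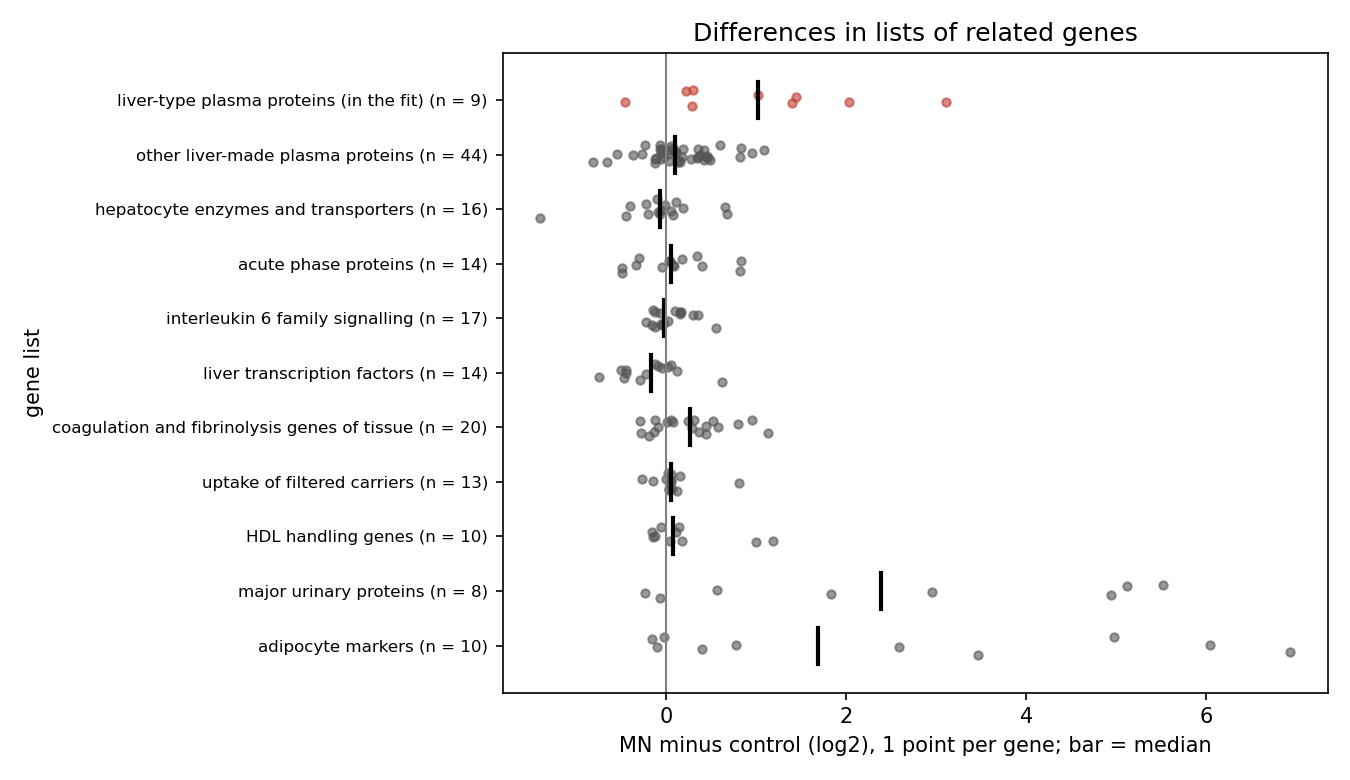
MN minus control difference (log2) of each gene in the fit, by list, with 1 point per gene and a bar at the list's median, the liver-type plasma protein genes in red at the top. Their bar stands at 1.02, that of the other liver-made plasma proteins at 0.10 and that of hepatocyte enzymes at -0.07. Major urinary proteins (2.39) and adipocyte markers (1.68) reach furthest right. There Adipoq, Retn, Mup1, Mup17 and Mup18 are fitted values known only by an approximate lower bound.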

How the data were processed

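Per the labels' protocols, total kidney RNA was labelled with Cy3. The deposited scanner files hold spot intensity from Agilent Feature Extraction 10.5.1.1 which, per the file headers, subtracted background, corrected trends and put substitute values in dim spots (17.7% and 20% in MN, 16% and 6.91% in control). The deposited value table holds log2 values of the authors, centred on the controls. Its columns for replicates 1 and 2 were exchanged against the scanner files, and which order is right is unknown. Its column medians were -0.0326 and -0.0442 in MN and 0.0262 and -0.0262 in control, its direction and scale matched the scanner values, and it served only as an alternative.

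Of 62976 spots per array, 59305 were non-control spots of 55681 probes, and 0 were saturated; spots with an outlier flag were left out. Values were log2 processed signal minus the array's 75th percentile. Spots of a probe were averaged, and a gene was represented by its brightest probe that passed the filter. Probes were named by accession (28026), symbol (3418) or synonym (295) in a RefSeq table of GRCm38.p6, and otherwise by the file (23942), with slide 2's annotation, since the slides carry different versions. The comparison of MN with control used lmFit and eBayes of limma 3.58.1 (R 4.3.3), with two-sided p-values adjusted by Benjamini-Hochberg across 25293 genes at a threshold of 0.05. The fit had 2 residual and 1.99 prior degrees of freedom, and the script was tested on simulated data. As the labels do not name separate animals, a p-value here reflects only the spread of these samples, which may be technical. Summaries were written in Python 3.11.15 with numpy 2.4.6 and pandas 2.3.3, and plots with matplotlib 3.10.9.

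Members, lists and tests were chosen with earlier results of these data known. The rule for named genes took all members, the 4 genes of each list that differed most in either direction, a set of liver, acute phase and uptake genes, and the 3 nearest profiles of Ahsg, Fgb, Ttr and Alb. Replicate number, slide and scan coincide: arrays of 1 number deviated together from their groups (r = 0.626 over genes). With 2 arrays a group this is 1 value, and the labels do not state that a number marks a shared batch. The alternatives were normexp (offset 50), quantile or median scaling, the deposited table, the mean of a gene's probes, no filter or a filter on all 4 arrays, the replicate block, a variance trend, a threshold of 0.1 and leaving out each array. Values of some genes of these lists are not reported here.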

Additional observations from a re-analysis of the deposited data

How the results depend on the processing

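The 9 differences of the liver-type plasma protein genes had 107 values over the alternatives, of which 102 moved by no more than 1 SD of the arrays. The 5 others were normexp for Ahsg (1.56), Fgb (0.57) and Rbp4 (1.50), quantile scaling for Fgb (1.60), and the mean of probes for Fga (0.08). Many of the 102 could not move further. Leaving out 1 of 2 arrays cannot shift a difference by more than that SD, and the replicate block returns the same difference. So do the filters and the mean of probes for a gene with 1 probe. The count of 102 is therefore no measure of robustness. The median of the 9, 1.02, was 0.57 with normexp and 0.66 over genes well above background on all 4 arrays, which leaves out Ahsg. It was 0.83 to 1.21 when an array was left out (0.83 without control replicate 2, 1.21 without control replicate 1). The replicate block cannot change a difference in this balanced design, only its SE and p-value. With the replicate block the SE was 0.11 for Fga, 0.10 for Fgg, 0.10 for Apoa2 and 0.11 for Cps1. Apoa2 ran from -0.01 to 0.44 and Cps1 from -0.92 to -0.00. The 5 genes called higher in MN became 15 with normexp, 20 with quantile scaling, 11 with median scaling, 16 with a variance trend and 22 at a threshold of 0.1. They became 0 with no filter on dim probes, 0 with the filter on all 4 arrays, 0 with the replicate block and 0 to 0 when any array was left out. At an unadjusted p under 0.05, limma then had 795, 861 and 1589 genes higher for the first 3, and 438 to 875 without an array. Genes called lower were 0 in every setting, with 468 to 2292 lower at an unadjusted p under 0.05. The cause was not tested. The median of other liver-made plasma proteins, 0.10, was 0.15 with quantile scaling and 0.06 to 0.15 when an array was left out. That of hepatocyte enzymes and transporters, -0.07, was 0.09 without MN replicate 1 and 0.10 without control replicate 2, and -0.11 was its lowest value. Of the 240 list medians, 170 moved by less than the spread and 70 by more. The 170 include the medians with the replicate block, which cannot move. The background limits Ahsg, Fgb and Apoa1 most. Slide and replicate number cannot be told apart.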
